A study of Mus musculus with 8 samples.

Results

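AP-1 is a family of transcription factors built as pairs of Fos and Jun proteins. The genes described here are Fos, Fosb, Jun, Junb and Jund of that family, the related factor gene Atf3, and Ier2, another immediate early gene. All probe sets that the platform annotation maps to 1 of these 7 symbols alone were taken, which gave 7 of 8251 annotated genes and 11 of 12422 probe sets that are not controls. Fos and Junb have 2 probe sets each, Atf3 has 3, and the other genes have 1.

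Total RNA of mouse double positive thymocytes was measured on 8 arrays with Affymetrix-type probe sets. These cells of the thymus carry CD4 and CD8 together and begin to display a complete alpha and beta chain receptor, on which their survival depends. The 4 groups have 2 arrays each, numbered 1 and 2 in the titles, and the series concerns antibodies that engage the receptor. The groups are called control, overnight control, Valpha2 and Vbeta5, and the latter names are those of receptor segments, Valpha2 in the alpha chain and Vbeta5 in the beta chain. The sources used here do not give strain, genotype, age, antibody clone, dose or time, and the control has no time label. Whether the arrays of a group came from separate cultures or animals is not stated, so each p-value reflects only the spread between these arrays, which may be technical.

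Immediate early genes are transcribed within minutes of a signal, without new protein synthesis, and most of their transcripts are short-lived. In T cells, receptor engagement activates Ras and the MAP kinases ERK, JNK and p38. These kinases act on factors bound at the Fos and Jun promoters and on the Jun proteins themselves. Fos proteins bind DNA only when paired with a partner such as a Jun protein, while Jun proteins also pair with each other. In activated T cells AP-1 binds DNA together with NFAT, for example at the Il2 gene.

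The promoter sequences of 4 members are shown because cyclic AMP response elements, whose core begins with TGACG, are a known input to immediate early genes. RefSeq sequences of build GRCm38.p6 were found for 6 of the 7 genes, and Ier2 has no entry in that table. Each line gives the 150 bases before the annotated transcription start, 5′ to 3′ on the strand of the gene, and capitals mark TGACG on either strand. Fos lies on the plus strand at chr12:85473740-85473889. Fosb lies on the minus strand at chr7:19310046-19310195, Junb on the minus strand at chr8:84978749-84978898 and Atf3 on the minus strand at chr1:191183334-191183483.
Fos: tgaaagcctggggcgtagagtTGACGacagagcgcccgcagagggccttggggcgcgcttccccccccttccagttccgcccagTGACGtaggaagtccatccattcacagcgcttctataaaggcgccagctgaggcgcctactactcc
Fosb: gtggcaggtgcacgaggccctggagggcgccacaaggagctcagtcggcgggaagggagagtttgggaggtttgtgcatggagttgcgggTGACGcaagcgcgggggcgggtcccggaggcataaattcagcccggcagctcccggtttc
Junb: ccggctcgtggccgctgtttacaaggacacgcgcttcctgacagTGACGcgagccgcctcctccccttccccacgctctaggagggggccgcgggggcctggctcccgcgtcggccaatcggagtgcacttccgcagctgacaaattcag
Atf3: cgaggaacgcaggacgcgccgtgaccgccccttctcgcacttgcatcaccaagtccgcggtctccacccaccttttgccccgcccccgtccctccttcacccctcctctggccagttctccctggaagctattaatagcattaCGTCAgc

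Over the 250 bases before the start, TGACG on either strand was found 2 times in Fos and 1 time each in Fosb, Junb and Atf3. It was not found in the windows of Jun and Jund. Of 32851 promoter windows of the same length in the table, 17.8% held TGACG. The longer TGACGT, which contains TGACG, was found in Fos and Atf3 and in 6.47% of all windows. The full palindrome TGACGTCA (1.55% of windows), the AP-1 site TGACTCA (4.46%) and the CArG box bound by serum response factor (1.47%) were not found in the windows of these 6 genes. These matches describe the letters of the windows and were not related to the signal. Only these patterns within 250 bases were searched, so sites further upstream or with other letters were not looked for.

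The deposited values are normalized intensities, and no detection calls were used here. Differences were fitted by limma on log2(signal + 17) in 1 fit of all 8 arrays, so a fold change understates the change of dim probe sets. Of the 11 probe sets, 8 were bright enough to be tested among 8281, and they stand for 6 of the 7 genes. The probe set of Jun, 161716_at of Fos and 161645_r_at of Atf3 lay under the limit on brightness. A difference passed where its Benjamini-Hochberg adjusted p over the 8281 probe sets was under 0.05. All adjusted p-values are two-sided, and each value ± SD has n = 2. There were 48 pairs of a tested probe set and a comparison, and in 19 of them a difference that did not pass also took the opposite sign under at least 1 alternative setting. For those pairs no fitted difference is given.

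RNA quality differed between arrays, since the log2 ratio of the 3′ to the 5′ control probe set for Gapdh was 0.48 for array 1 of Vbeta5, 0.95 for array 1 of the overnight control and 1.72 for array 1 of Valpha2. It lay between -0.28 and -0.09 on the other 5 arrays. Of the double positive markers, Cd8a had a signal of 2143 to 8257 and Rag1 of 1840 to 14715 over the arrays. Others were dimmer, with Ptcra at 56.3 to 181.8 and Rag2 at 21.2 on its lowest array. The summed signal of the 10 measured double positive markers was 17721 and 30148 on the Vbeta5 arrays, against 57434 and 58585 in the overnight control, 48432 and 60283 with Valpha2 and 45057 and 48972 in the control. Markers of dendritic cells and MHC class II (8 of 8 measured) summed to 2214 and 2266 with Vbeta5, 1048 and 2266 in the overnight control, 1259 and 1296 with Valpha2 and 1039 and 1054 in the control. Markers of macrophages and monocytes (8 of 8 measured) summed to 727 to 816, 498 to 972, 539 to 543 and 430 to 476 in the same order of groups, with 1 of the 8 under a signal of 17 on every array. Other cells also transcribe AP-1 genes, and the part of these markers in the results below was not tested. In these bulk RNA samples fewer cells of a type and less RNA per cell cannot be told apart.

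Ier2, a nuclear protein gene induced by growth factors, was higher on both Vbeta5 arrays than on any other array. Its signal was 403 and 456 in the control, 418 and 533 in the overnight control, 462 and 776 with Valpha2, and 1459 and 1878 with Vbeta5, with arrays 1 and 2 in that order. The Vbeta5 arrays stood apart from the other 6, while the remaining 3 groups overlapped except that both Valpha2 arrays lay above the control arrays.

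Against the overnight control, Ier2 rose 3.42-fold with Vbeta5, from 475 ± 81.5 to 1668 ± 296. The log2 difference was 1.77 ± 0.29 (SE; limma adjusted p = 0.0223). Ier2 was the only one of the 8 tested member probe sets to pass in this comparison, where 0.616% of all tested probe sets passed, 0.35% as higher and 0.266% as lower. The arrays did not overlap and the unadjusted p was under 0.05 for 4 of the 8, namely Ier2, Fos 160901_at and both Junb probe sets, all higher, against 15.9% and 8.49% of all tested probe sets. Against the control, Ier2 rose 3.75-fold, a log2 difference of 1.91 ± 0.29 (limma adjusted p = 0.0124). Against Valpha2 its difference was 1.44 ± 0.29 and did not pass (limma adjusted p = 0.0825), with a 95% interval of 0.80 to 2.08.

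The size of the Ier2 difference from the overnight control changed little between settings, but its call did not hold in all of them. It lay between 1.59 and 1.95 when 1 array was left out. The adjusted p was 0.111 without overnight control array 1, 0.0593 without overnight control array 2, 0.0699 without Vbeta5 array 1 and 0.309 without Vbeta5 array 2. The call also ended at a common median of the arrays (limma adjusted p = 0.102) and without a variance trend (limma adjusted p = 0.136). Without the arrays numbered 1 of the overnight control, Valpha2 and Vbeta5, which are the 3 with the highest Gapdh ratios, the call was kept. Against the control the Ier2 call ended without Vbeta5 array 2 (limma adjusted p = 0.0937), control array 1 (limma adjusted p = 0.137) or control array 2 (limma adjusted p = 0.119). It ended there at a common median (limma adjusted p = 0.0595) and without the variance trend (limma adjusted p = 0.0692) as well.

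**Figure D1:**
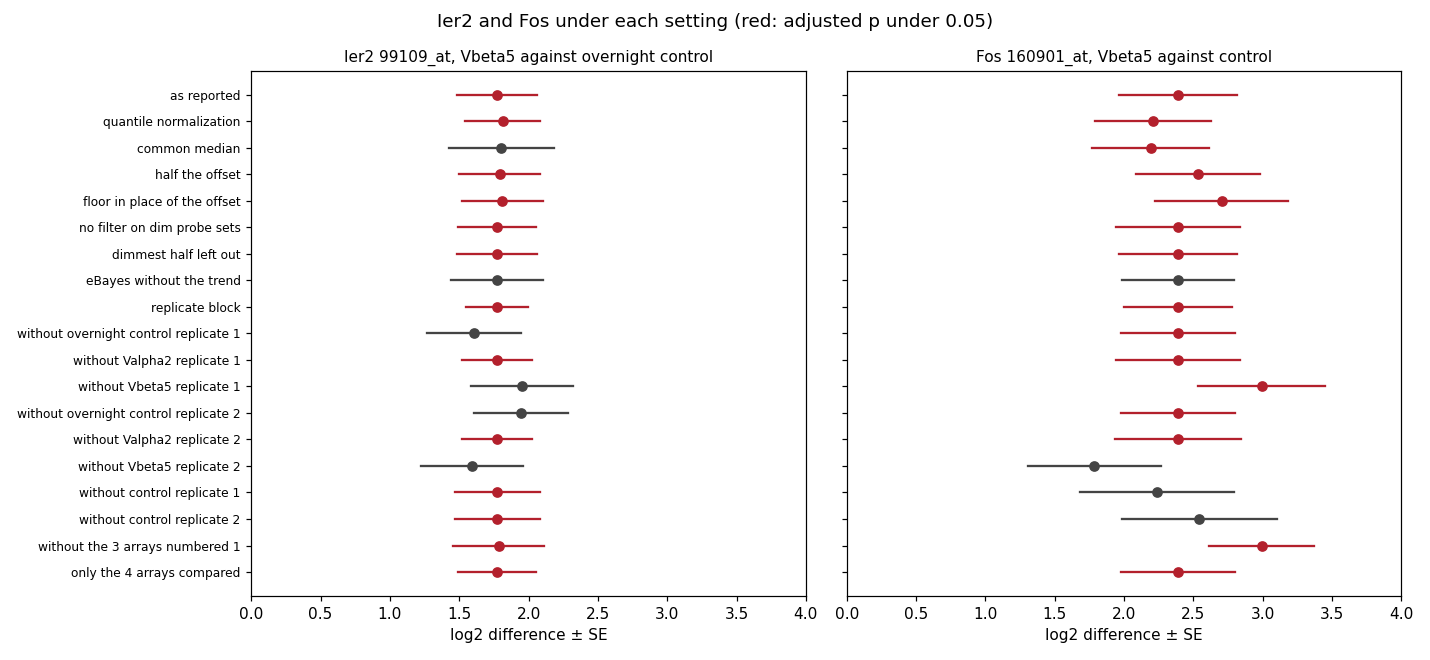
The log2 difference ± SE of Ier2 with Vbeta5 against the overnight control (left) and of Fos with Vbeta5 against the control (right), for the fit as reported and 18 alternative settings, with red for an adjusted p under 0.05. The Ier2 points stay between 1.59 and 1.95 and the Fos points between 1.79 and 2.99, while the colour changes between settings.

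Fos encodes c-Fos, the classical partner of c-Jun in AP-1. On its brighter probe set, 160901_at, the signal was 48.7 and 64.1 in the control, 142 and 118 in the overnight control, 95.9 and 112 with Valpha2, and 235 and 564 with Vbeta5. The control arrays were the lowest and the Vbeta5 arrays the highest, with no overlap of either with another group. The Vbeta5 arrays also differed most from each other, at 399 ± 233.

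Against the control Fos rose 5.24-fold with Vbeta5, a log2 difference of 2.39 ± 0.43 (SE; limma adjusted p = 0.0208). In this comparison 2 of the 8 tested member probe sets passed, Fos and Ier2, both higher, against 1.61% of all tested probe sets, 0.616% higher and 0.99% lower. The Vbeta5 arrays lay above both control arrays for 6 of the 8, against 29.3% of all tested probe sets, and below them for Atf3 104156_r_at, against 19%. An unadjusted p under 0.05 was found for 5 of the 8, against 11.1%. Against the overnight control the Fos difference was 1.39 ± 0.43 (limma adjusted p = 0.273) and against Valpha2 1.67 ± 0.43 (limma adjusted p = 0.223), and neither passed. The overnight control differed from the control by 1.00 ± 0.43 (limma adjusted p = 0.518). In order of mean signal the groups stood as control, Valpha2, overnight control and Vbeta5, and no pair of neighbours in that order passed the test.

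Single arrays changed the Fos calls. Against the control the adjusted p was 0.215 without Vbeta5 array 2, 0.234 without control array 1 and 0.141 without control array 2, and 0.0632 without the variance trend. Against the overnight control leaving out Vbeta5 array 2 gave a Fos difference of 0.78, and leaving out array 1 gave 1.99. Against Valpha2 the same omissions gave 1.06 and 2.27. Without the arrays numbered 1 of the overnight control, Valpha2 and Vbeta5, the Fos difference was 2.11 against the overnight control and 2.175 against Valpha2.

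The dim Fos probe set, 161716_at, did not follow the brighter one. Its signal was 8.1 and 5.4 in the control, 87.6 and 22.1 in the overnight control, 23.4 and 32.0 with Valpha2, and 50.0 and 24.5 with Vbeta5. Both probe sets were lowest in the control, but here overnight control array 1 was the highest array and the Vbeta5 arrays overlapped the overnight control. It was under the limit for testing.

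Fosb, the closest relative of Fos among the members, had its highest mean with Vbeta5 as well. Its signal was 99.4 and 109 in the control, 350 and 157 in the overnight control, 189 and 163 with Valpha2, and 402 and 333 with Vbeta5. The control arrays were below all other arrays. Overnight control array 1, with a Gapdh ratio of 0.95, lay between the Vbeta5 arrays, so those groups overlapped.

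The Fosb difference between Vbeta5 and the control was 1.66 ± 0.37 (SE; limma adjusted p = 0.062), just outside the threshold. It passed with 1 overnight control array left out (adjusted p = 0.0178 without array 1 and 0.0155 without array 2), although that group is not part of the comparison and enters only through the estimate of spread. It also passed in a fit of the 4 arrays compared (limma adjusted p = 0.0194). The overnight control differed from the control by 1.06 ± 0.37 (limma adjusted p = 0.439), or by 1.60 (limma adjusted p = 0.0492) without overnight control array 2 and 0.53 without array 1. Vbeta5 differed from Valpha2 by 0.99 ± 0.37 (limma adjusted p = 0.465) and from the overnight control by 0.60 ± 0.37 (limma adjusted p = 0.783). The latter was 1.14 without overnight control array 1 and 0.06 without array 2.

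**Figure D2:**
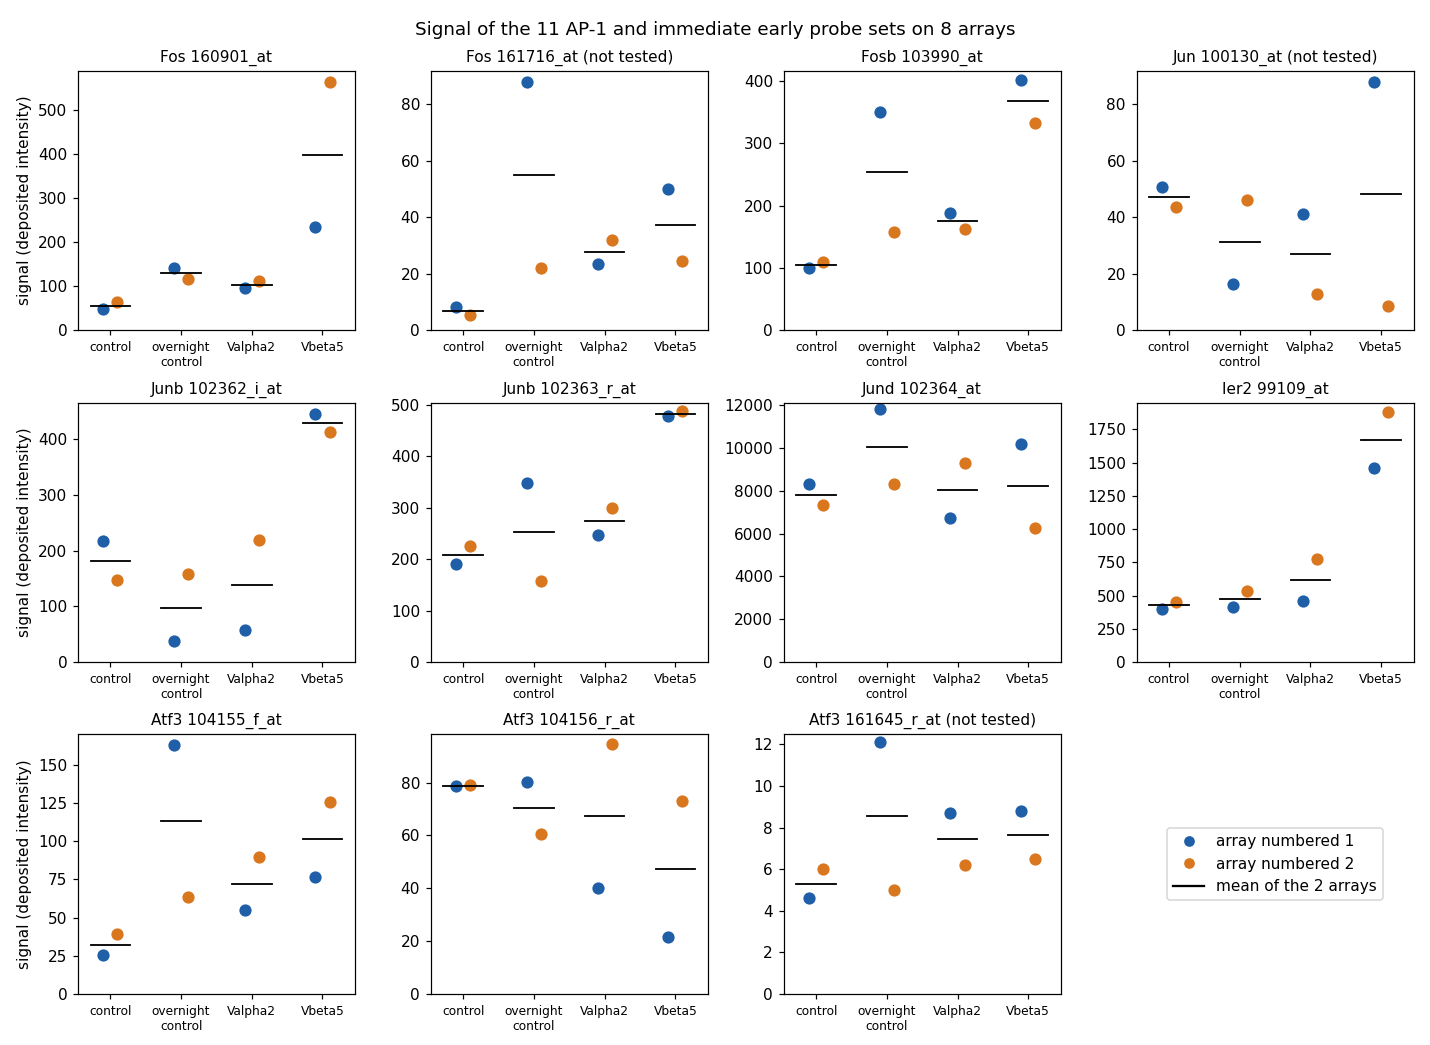
Signal (deposited intensity, linear axis from 0, scaled separately in each panel) of the 11 member probe sets on the 8 arrays by group. Blue and orange points are the arrays numbered 1 and 2 and the bar is their mean. In Ier2, Fos 160901_at and both Junb panels the 2 Vbeta5 arrays lie above the other 6, while all groups overlap in Jund.

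Junb encodes a Jun protein that forms AP-1 pairs of weaker or different activity than c-Jun in many settings. Its 2 probe sets were both highest on the Vbeta5 arrays. On 102362_i_at the signal was 217 and 147 in the control, 37.6 and 157 in the overnight control, 58.2 and 218 with Valpha2, and 445 and 412 with Vbeta5. On 102363_r_at it was 191 and 225 in the control, 349 and 157 in the overnight control, 248 and 299 with Valpha2, and 478 and 487 with Vbeta5. Both Vbeta5 arrays lay above the other 6 on each probe set, and the other groups overlapped for the most part.

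No Junb difference passed. Against the overnight control they were 2.19 ± 0.61 (SE; limma adjusted p = 0.215) on 102362_i_at and 0.99 ± 0.35 (limma adjusted p = 0.405) on 102363_r_at. Against Valpha2 they were 1.74 ± 0.61 (limma adjusted p = 0.408) and 0.79 ± 0.35 (limma adjusted p = 0.602), and against the control 1.19 ± 0.61 (limma adjusted p = 0.525) and 1.16 ± 0.35 (limma adjusted p = 0.188). Single arrays moved these sizes. Against Valpha2, 102362_i_at differed by 0.92 without Valpha2 array 1 and by 2.56 without array 2. Against the overnight control it differed by 1.35 without overnight control array 1 and by 3.03 without array 2, and 102363_r_at by 1.52 and 0.45. The difference of 102363_r_at from the control passed in a fit of those 4 arrays alone (limma adjusted p = 0.0457). It also passed without overnight control array 1 (limma adjusted p = 0.0487) or array 2 (limma adjusted p = 0.0436), though that group is not compared.

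The Junb probe sets disagreed within the overnight control. Array 1 was the lower of the pair on 102362_i_at and the higher on 102363_r_at. On 102362_i_at Valpha2 array 1 was low as well, so its lowest values fell on the 2 arrays with the highest Gapdh ratios, whose part in the result was not tested. Without the arrays numbered 1 of the overnight control, Valpha2 and Vbeta5 the difference of 102362_i_at between Vbeta5 and the overnight control was 1.30 in place of 2.19. The letters i, r and f in such names mark probe sets that the manufacturer designed under relaxed rules, and f marks one whose probes may match related sequences.

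Jund encodes a Jun protein that most cells transcribe without stimulation. Its signal was 8313 and 7328 in the control, 11830 and 8291 in the overnight control, 6731 and 9297 with Valpha2, and 10191 and 6263 with Vbeta5. The Valpha2 and Vbeta5 groups overlapped each other and all other groups, and the spread within each was larger than the difference between their means, at 8014 ± 1815 and 8227 ± 2777. The overnight control differed from the control by 0.34 ± 0.30 on the log2 scale without passing (SE; limma adjusted p = 0.729). The sign of the other 5 Jund differences turned between settings. Overlap of this kind does not show that Jund stayed the same.

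Jun itself, the gene of c-Jun, was dim. Its signal was 50.5 and 43.7 in the control, 16.5 and 46.0 in the overnight control, 41.1 and 12.8 with Valpha2, and 87.8 and 8.7 with Vbeta5. The highest and the lowest of the 8 arrays were both Vbeta5 arrays, and only the Valpha2 and control arrays did not overlap, with Valpha2 lower. It was under the limit for testing, and no order of the groups can be read from it. In a fit with no filter on brightness Vbeta5 differed from the overnight control by 0.18 ± 0.68 on the log2 scale (SE; limma adjusted p = 1).

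Atf3 encodes a stress-induced factor that pairs with Jun proteins and often represses. On 104155_f_at the signal was 25.4 and 39.1 in the control, 163 and 63.3 in the overnight control, 55.0 and 89.4 with Valpha2, and 76.7 and 126 with Vbeta5. Both control arrays were below the other 6, and the other groups overlapped. On 104156_r_at the signal was 78.6 and 79.2, 80.4 and 60.4, 40.3 and 94.6, and 21.7 and 72.9 in the same order. There the Vbeta5 arrays lay below the control arrays, which is the other direction from 104155_f_at, although array 2 was close to the control.

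The differences of 104155_f_at from the control were 1.30 ± 0.51 (SE; limma adjusted p = 0.49) for the overnight control, 0.84 ± 0.51 (limma adjusted p = 0.794) for Valpha2 and 1.25 ± 0.51 (limma adjusted p = 0.384) for Vbeta5. The first was 0.72 without overnight control array 1 and 1.88 without array 2. The difference of 104156_r_at was -0.70 ± 0.53 (limma adjusted p = 0.699) for Vbeta5, and it rested on 1 array, being -0.09 without Vbeta5 array 1 and -1.31 without array 2. The remaining Atf3 probe set, 161645_r_at, stayed between 4.6 and 12.1 on all arrays.

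With Valpha2 no member passed. Against the overnight control 0 of 8 tested member probe sets passed by limma and 0 had an unadjusted p under 0.05, where 0% of all tested probe sets passed and 1.62% had such a p. Ier2 had a signal of 619 ± 222 with Valpha2 and 475 ± 81.5 in the overnight control. Valpha2 array 1, at 462, lay between the overnight control arrays. For Fos the difference was -0.28 ± 0.43 (SE; limma adjusted p = 1), with an interval from -1.23 to 0.67. Only Fos 160901_at had both Valpha2 arrays on one side of both overnight control arrays, below them, against 10.2% of all tested probe sets.

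Against the control, 0 of 8 passed with Valpha2 and 0 had an unadjusted p under 0.05, where 0.399% of all tested probe sets passed, 0.0362% as higher and 0.362% as lower, and 7.46% had such a p. The Valpha2 arrays lay above both control arrays for 5 of the 8, against 25.8% of all tested probe sets. The largest difference with a stable sign was 0.84 for Atf3 104155_f_at, followed by 0.72 ± 0.43 for Fos, 0.67 ± 0.37 for Fosb, 0.47 ± 0.29 for Ier2 and 0.37 ± 0.35 for Junb 102363_r_at.

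In the direct comparison of Vbeta5 with Valpha2, 0 of 8 member probe sets passed by limma, where 0.278% of all tested probe sets passed, 0.0966% as higher and 0.181% as lower. Of the 8, 5 had an unadjusted p under 0.05, against 8.19% of all tested probe sets. These 5 were also the ones whose Vbeta5 arrays both lay above both Valpha2 arrays, which held for 21.8% of all tested probe sets. They belong to Fos, Fosb, Ier2 and Junb, whose 2 probe sets share a target. Since clones and doses are not given, the chain engaged cannot be told apart from antibody or dose.

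For the overnight control against the control, 0 of 8 passed by limma, where 0.0121% of all tested probe sets passed as higher and 0.169% as lower. Of the 8, 3 had an unadjusted p under 0.05 and did not overlap, namely Fos 160901_at, Fosb and Atf3 104155_f_at, all higher. The background was 9% of all tested probe sets for such a p and 21.6% for no overlap in that direction. No tested member had both overnight control arrays below both control arrays, which held for 16.3% of all tested probe sets. The comparisons with Vbeta5 and Valpha2 share their control arrays with this one, so their differences are not independent of it.

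**Figure D3:**
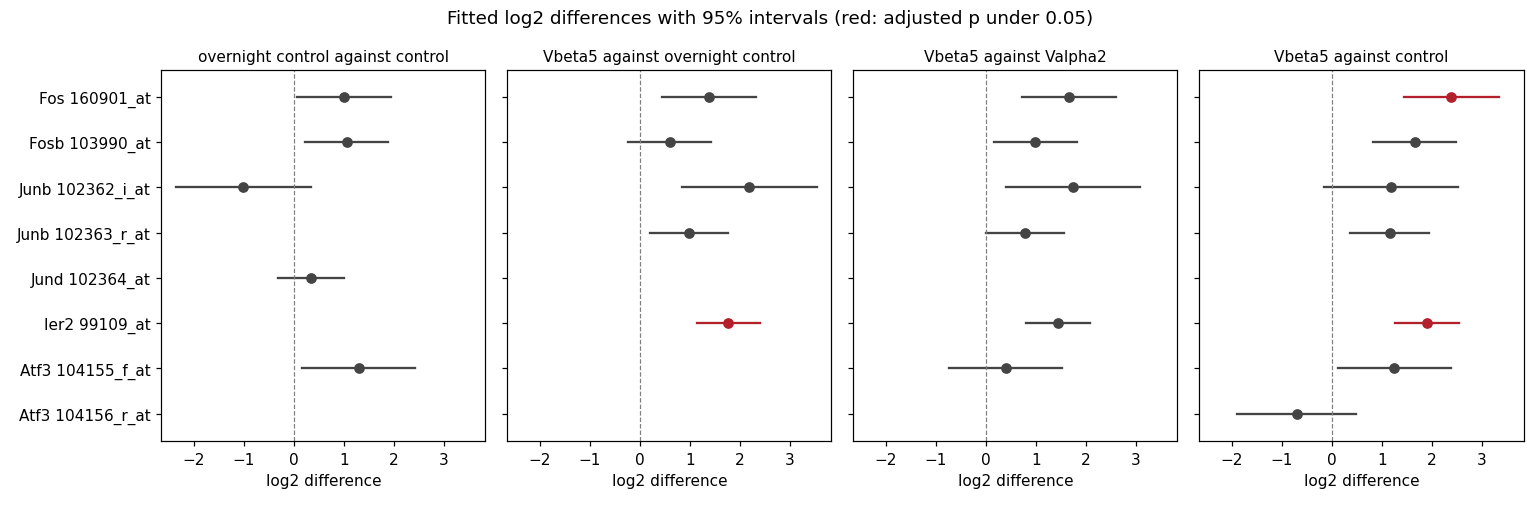
Fitted log2 differences (points) with 95% intervals (lines) of the tested member probe sets in 4 comparisons, with red for an adjusted p under 0.05. Pairs whose sign turned between settings are left blank. Ier2 is red against both controls and Fos 160901_at against the control.

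Other genes tied to AP-1 were counted by lists, with 1 tested probe set a gene. The lists were chosen with earlier results of these data known. Among 23 tested genes of the list of other immediate early genes, 3 rose with Vbeta5 against the overnight control, 0 fell and 20 did not pass. Of all tested probe sets 0.35% passed as higher in this comparison. The list's median difference was 0.36, against -0.009 over all tested probe sets. The 3 were Egr2 (3.21 ± 0.36 SE) and Egr1 (1.92 ± 0.22), zinc finger factors of the same immediate early class, both with a limma adjusted p of 0.0106, and Dusp2, a nuclear MAP kinase phosphatase. Dusp2 had a signal of 749 and 800 in the overnight control against 2302 and 2196 with Vbeta5, a difference of 1.52 ± 0.28 (limma adjusted p = 0.0414). The count was 0 without Vbeta5 array 2 or without the variance trend. The Dusp2 call ended in 8 of 18 alternatives, among them the omission of any array of the control, overnight control or Vbeta5 groups, with an adjusted p of up to 0.317. The Egr1 and Egr2 calls against the overnight control ended in 2 of 18 each.

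With Vbeta5 against the control, 0.616% of all tested probe sets passed as higher. Of the 23 genes of the list 6 rose there and 0 fell, with a median of 0.395 against 0.078 over all tested probe sets. Besides Egr2, Egr1 and Dusp2 these were Nr4a1 at 4.35 ± 0.53 (SE; limma adjusted p = 0.00773), Id3 at 1.30 ± 0.23 (limma adjusted p = 0.0205) and Gadd45b at 1.84 ± 0.35 (limma adjusted p = 0.0278). Nr4a1 is an orphan nuclear receptor, Id3 an inhibitor of E proteins and Gadd45b a stress-induced activator of JNK and p38 signalling. Against the same control Gadd45b also stood at 1.64 ± 0.35 in the overnight control (limma adjusted p = 0.102). With Valpha2 it stood at 1.52 ± 0.35 (limma adjusted p = 0.141), so its difference was not particular to Vbeta5. Nr4a1 stood at 1.70 ± 0.53 in the overnight control and 1.84 ± 0.53 with Valpha2, without passing. Of 18 alternatives, 10 ended the Gadd45b call against the control and 6 each the Id3, Egr1 and Dusp2 calls. The Egr2 and Nr4a1 calls ended in 2 each. The count was 2 without either Vbeta5 array and 0 without either control array. Against Valpha2, Egr1 and Egr2 rose and 21 genes did not pass, with 0 without Vbeta5 array 2, without Valpha2 array 1 or without either control array, 1 without Vbeta5 array 1 and 4 without Valpha2 array 2. The count was also 0 at a common median, without the variance trend and in a fit of the 4 arrays compared, settings in which 0 of all probe sets passed by limma. In the main fit 0.0966% of all tested probe sets passed as higher against Valpha2. The Egr1 call against Valpha2 ended in 9 of 18 alternatives and the Egr2 call in 7.

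With Valpha2 against the overnight control 0 of the 23 passed, where 0% of all tested probe sets passed. The list's median was 0.12 against -0.022 over all tested probe sets. For the overnight control against the control 0 of the 23 passed, where 0.181% of all tested probe sets passed. The median was 0.139 against 0.099. Gadd45b was nearest among the higher genes there, at 1.64 ± 0.35 (SE; limma adjusted p = 0.102). Dusp6, an ERK phosphatase gene, stood at -1.59 ± 0.34 (limma adjusted p = 0.102), although its other tested probe set differed by 0.60.

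The list of AP-1 partners and regulators holds Fosl1, Fosl2, Batf and the Maf, Bach and Nfe2l genes among others. Of its 18 tested genes 0 passed in any of the 6 comparisons, where 0% to 1.61% of all tested probe sets passed. With shares that small, a count of 0 says little about these genes. Their median with Vbeta5 against the overnight control was -0.01. Bach1, a repressor that shares AP-1-like sites, had the smallest p at -0.77 ± 0.32 (SE; limma adjusted p = 0.536). Ddit3, the stress factor CHOP, stood at 1.07 ± 0.27 against the control (limma adjusted p = 0.104).

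Among 24 tested genes of the kinases and factors upstream of AP-1, 0 passed in any of the 6 comparisons either. The same shares of all tested probe sets apply, so this count says as little about these genes. Their median with Vbeta5 against the overnight control was -0.011. The smallest p belonged to Mef2a, a calcium-regulated transcription factor gene, at -1.13 ± 0.30 (SE; limma adjusted p = 0.189). Prkcq, the protein kinase C of the T cell receptor pathway, stood at 0.72 ± 0.25 (limma adjusted p = 0.35), with its other tested probe set at 0.03.

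Of 20 genes with known AP-1 sites in T cells or fibroblasts, 19 were on the array and only 7 were bright enough to test. With Vbeta5 0 of the 7 passed against the overnight control, where 0.616% of all tested probe sets passed. The median of the 7 was 0.086. Timp1, a metalloproteinase inhibitor gene, rose in the overnight control against the control, from 83.0 ± 36.8 to 549 ± 181 (log2 difference 2.51 ± 0.37 SE, limma adjusted p = 0.0333). In that comparison 0.0121% of all tested probe sets passed as higher. The call for Timp1 ended in 5 of the 18 alternatives, and over all 18 the difference stayed between 2.13 and 2.90. The rise was not particular to the overnight control. Against the control Timp1 stood at 1.90 ± 0.37 with Valpha2 (limma adjusted p = 0.0708) and 1.74 ± 0.37 with Vbeta5 (limma adjusted p = 0.0508), without passing. Markers of thymic epithelium (7 of 8 measured) summed to 586 and 631 in the overnight control against 198 and 275 in the control. They summed to 413 and 568 with Valpha2 and to 210 and 265 with Vbeta5. Markers of B cells (7 of 8 measured) summed to 822 and 1066 against 398 and 626, and those of granulocytes (8 of 8 measured) to 327 and 780 against 199 and 267, in the overnight control and the control. Those of fibroblasts and endothelium (8 of 8 measured) overlapped, at 673 and 2006 in the overnight control and 835 and 932 in the control. The sums for erythroid cells and for NK and gamma delta T cells overlapped between these groups as well. B cell markers summed to 663 and 716 with Vbeta5 and 771 and 919 with Valpha2. Granulocyte markers summed to 440 and 449 with Vbeta5 and 389 and 447 with Valpha2. These sums all lay above the control. NK and gamma delta T cell markers summed to 216.7 and 217.1 with Vbeta5 against 109.3 and 157.9 in the control. With Vbeta5 the erythroid sums and those of fibroblasts and endothelium overlapped the control. The part of all these markers in the Timp1 and Vbeta5 results was not tested.

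Heat shock and stress genes were counted because Fos, Jun and Atf3 also answer to stress. In the 6 comparisons 0% to 1.61% of all tested probe sets passed, and 0 of the 15 tested genes did in any. Their median was 0.387 with Vbeta5 against the overnight control and -0.196 for the overnight control against the control. Hsph1, a chaperone of the Hsp110 class, was nearest with Vbeta5 at 1.34 ± 0.26 (SE; limma adjusted p = 0.0596). Hsp90aa1 stood at -1.18 ± 0.25 in the overnight control against the control (limma adjusted p = 0.101).

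**Figure D4:**
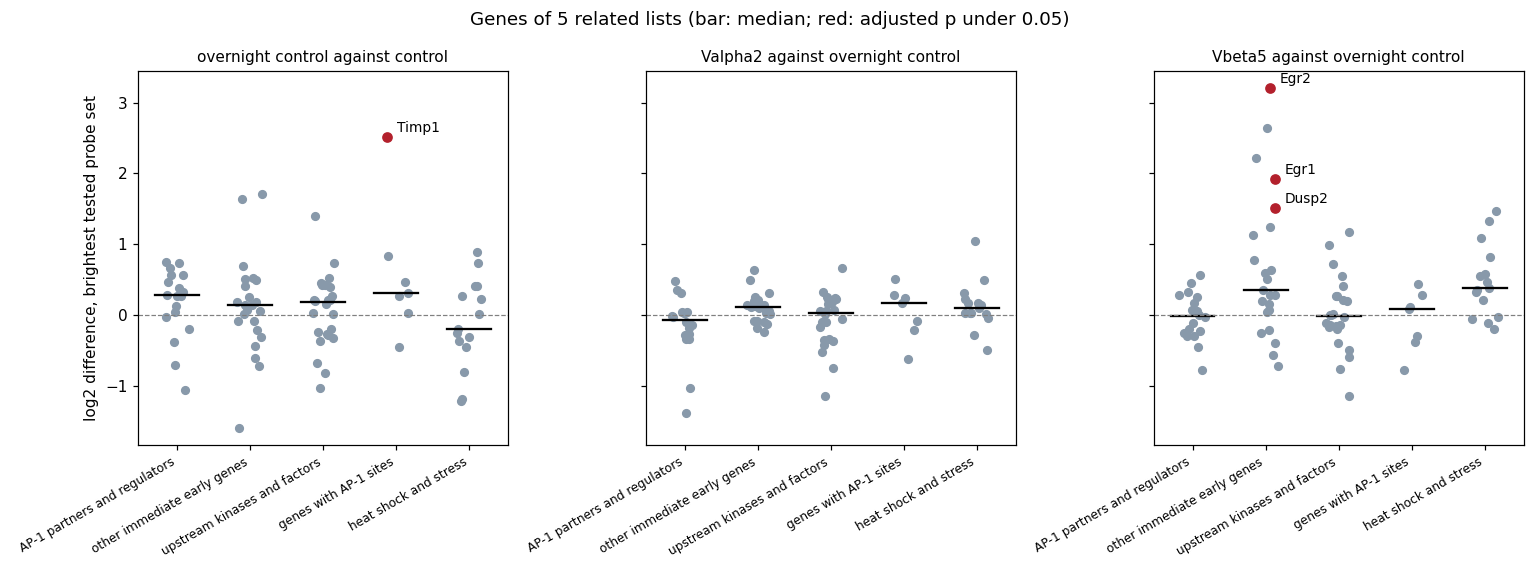
Log2 differences of the tested genes of 5 lists in 3 comparisons, with 1 point a gene, a bar at the median and red for an adjusted p under 0.05. With Vbeta5 the red points are Egr2, Egr1 and Dusp2, with Valpha2 there is none, and in the overnight control the red point is Timp1.

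For each member the tested genes with the nearest profile were found by the root mean square difference over the 8 arrays, after each probe set was centred on its own mean of log2(signal + 17). For Ier2 they were Dipk2a (0.115), Sh3bp2 (0.179), an adaptor of antigen receptor signalling, and Dusp2 (0.197), where Ier2 itself varied by 0.791 about its mean. For Fos 160901_at they were Irgm1 (0.236), an interferon-induced GTPase gene, Gnpnat1 (0.278) and Mdfic (0.337), against 0.924 for Fos. Irgm1 followed Fos from 49.4 and 76.3 in the control to 155 and 658 with Vbeta5.

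For Junb 102363_r_at the nearest were Klhdc2 (0.141), Tnfrsf1b (0.185), a receptor of tumour necrosis factor, and Klrb1b (0.187), against 0.524 for Junb. For Fosb they were H2-DMa (0.204), of MHC class II peptide loading, A530040E14Rik (0.23) and the proteasome subunit gene Psmb5 (0.238), against 0.666. For Jund they were Shf (0.075), Msrb1 (0.084) and Plp2 (0.102), against 0.287. For Atf3 104155_f_at they were Gstm2 (0.113), Kcnq1 (0.226) and Enpep (0.235), each on a probe set with the letter r, against 0.639. For the dim Jun probe set they were Acsf3 (0.294), Myh4 (0.33) and St3gal4 (0.353), against 0.65. These distances describe 8 arrays that share the group means and the arrays' own quality, and no test was made of them.

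**Figure D5:**
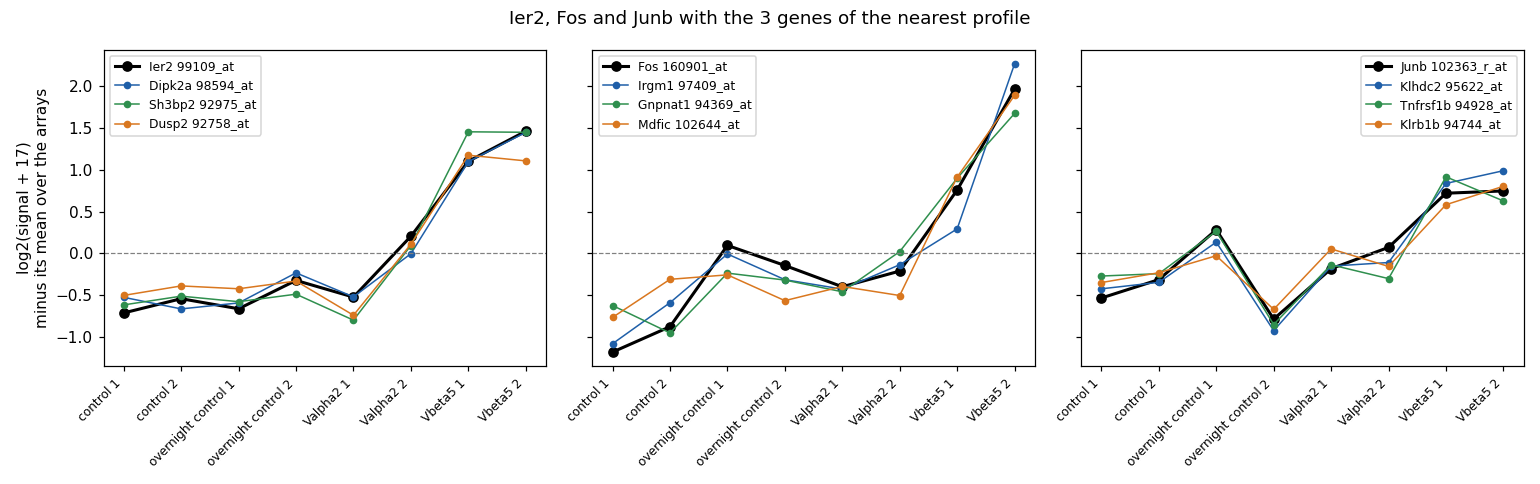
Profiles of Ier2, Fos 160901_at and Junb 102363_r_at (black) and of the 3 genes nearest to each (colours) over the 8 arrays, as log2(signal + 17) minus its mean over the arrays. Dipk2a lies closest to Ier2, at a root mean square difference of 0.115, and Irgm1 closest to Fos at 0.236.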

How the data were processed

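The authors deposited 1 table of intensity values for 12488 probe sets on 8 arrays, normalized per the labels; the sources used here name no software or scaling method. The median signal per array ranged from 73.65 to 110.25, and precision is limited by having 8 arrays. The 66 control probe sets were dropped. Signals were analysed as log2(signal + 17), the added value being the 20th percentile of positive signals rounded to a whole number. The dimmest 33.3% by mean log2 value were not tested. Symbols came from the platform annotation, updated by gene identifier with RefSeq of GRCm38.p6 (10817 of 10833 probe sets with 1 symbol matched).

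limma 3.58.1 in R 4.3.3 fitted 1 mean per group, with a variance trend and Benjamini-Hochberg adjustment over 8281 probe sets in each of 6 comparisons, and the script was tested on simulated data. An exact test of 2 arrays against 2 was not run. The members, lists and settings were chosen with earlier results of these data known. The text names all member probe sets, genes of the lists that passed or had the smallest p, and the 3 nearest profiles per member.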

Additional observations from a re-analysis of the deposited data

How the results depend on the processing

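Member differences that did not pass were given only where no refit turned their sign, which left 29 differences and removed 19. That the 29 kept their sign in all 517 refits follows largely from this selection. Settings that change only the filter or the estimate of spread leave a difference itself unchanged. The number of member probe sets past the threshold changed between settings. It is followed in brackets by the number of all probe sets past the threshold, which did not always move with it. For Vbeta5 against the overnight control it was 1 (51), and 0 at a common median (28) and without the variance trend (0), 2 when array 1 was dropped from each group but the control (144), and 0 to 1 when single arrays were left out (0 to 54). For Vbeta5 against the control it was 2 (133), and 1 at a common median (90), 0 without the trend (20), 4 when only its own 4 arrays were fitted (209) and 0 to 4 without single arrays (0 to 181), with 0 without either control array (2 and 0). For Vbeta5 against Valpha2 it was 0 (23), and 1 with the array number as a replicate block (90). For the overnight control against the control it was 0 (15), and 0 to 1 without single arrays (0 to 119). For both comparisons with Valpha2 as the treated group it was 0 in every setting run. The block brought Ier2 (Vbeta5 against Valpha2, adjusted p = 0.0131) and Fosb (Vbeta5 against control, limma adjusted p = 0.0212) past the threshold and ended no member's call. With it the count of other immediate early genes was 5 in place of 3 for Vbeta5 against the overnight control and 4 in place of 2 against Valpha2. The alternatives for genes of the lists were chosen after seeing the data. Same-numbered arrays of different groups deviated together (r across probe sets 0.104 to 0.345), but no label says that the numbers pair them.

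A common median moved the median difference of all tested probe sets by -0.226 for the overnight control, -0.196 for Vbeta5 and -0.138 for Valpha2, each against the control. It changed the calls over all probe sets for Vbeta5 against the control from 51 higher and 82 lower to 18 and 72. The cause of these changes was not tested.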
